A study of Trichoderma reesei with 8 samples.

Results

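Of the 9126 gene models of *T. reesei* QM6a, 96 had transcripts that were present in mycelia grown on glucose, were low after transfer to wheat straw and were still low after glucose had been added to the straw cultures. They were chosen on the mean of counted reads scaled to a common library total (CPM) in each condition. A model needed at least 20 CPM at 48 h glucose and, with 1 CPM added to each mean, at most 0.25 of that level both at 5 h glucose and on straw. Models on scaffold 29 were left out. Of the 4937 models at 20 CPM or more at 48 h glucose, 311 met the limit on straw, and 215 of these were above the limit at 5 h glucose and so were not chosen. The level at 48 h glucose and both ratios to it describe the choice and were not tested.

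*T. reesei* QM6a is the wild-type strain from which industrial cellulase producers were derived. The 2 cultures of 5 h glucose had been grown for 48 h in 1% glucose, washed, kept for 24 h in fresh medium with 1% wheat straw and then given glucose to 1% for 5 h, the 3 cultures of straw had gone through the same steps without the added glucose, and the 3 cultures of 48 h glucose were taken before the transfer. All were grown at 28°C. Cultures on straw and at 5 h glucose were therefore older than those at 48 h glucose and had been washed and moved to fresh medium, which cannot be told apart from the carbon source in comparisons with 48 h glucose. Cultures at 5 h glucose were in turn 5 h older than those on straw. That age cannot be told apart from the added glucose in comparisons with straw. Each library came from 1 culture and was sequenced as 50 bp SOLiD reads. The counted reads came to 798550 and 950244 at 5 h glucose, between 2473359 and 2997433 on straw and between 1337099 and 1704969 at 48 h glucose, so that 3 reads correspond to between 1.00 CPM in the deepest library and 3.76 CPM in the shallowest. Straw replicates 1 and 3 were unusually close. The median squared difference between them, over 4430 models with 200 or more reads in the pair, was 1.34 times that of counting noise, against 4.15 to 14.4 times for the other pairs of libraries from the same condition. Over 34 of the 96 models it was 0.907 times, within counting noise. They were kept as separate libraries, and the results without either are given below.

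Glucose represses many genes for the breakdown of plant cell walls in this fungus (carbon catabolite repression), and adding it to straw cultures is a common way to follow that repression. The models described here were instead read mainly in the glucose preculture. Some of them are annotated as enzymes that move electrons between metabolites, cofactors and oxygen. In fungal mitochondria electrons from NADH reach ubiquinone through NADH dehydrogenases and then oxygen either through cytochrome c oxidase or, by a shorter branch that does not pump protons, through the alternative oxidase.

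The 96 models took 0.685 and 0.856% of the counted reads at 5 h glucose, 0.643, 0.609 and 0.651% on straw, and 6.11, 7.35 and 6.32% at 48 h glucose. The mean was 0.770 ± 0.121% at 5 h glucose (SD, n = 2), 0.635 ± 0.0222% for straw (SD, n = 3) and 6.59 ± 0.661% at 48 h glucose (SD, n = 3). Every library at 48 h glucose lay far above the other 5, as the choice requires. The order of the 2 later conditions depended on the denominator: of the library totals behind the deposited RPKM, the models took 0.0665% at 5 h glucose, 0.12% for straw and 0.744% at 48 h glucose. The 95% Wilson interval of the share was narrow in each library, from 0.667 to 0.703% in the shallowest, and such intervals cover counting error only. In RNA from whole mycelia, fewer hyphae with a transcript and less of it per hypha cannot be told apart.

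**Figure D1:**
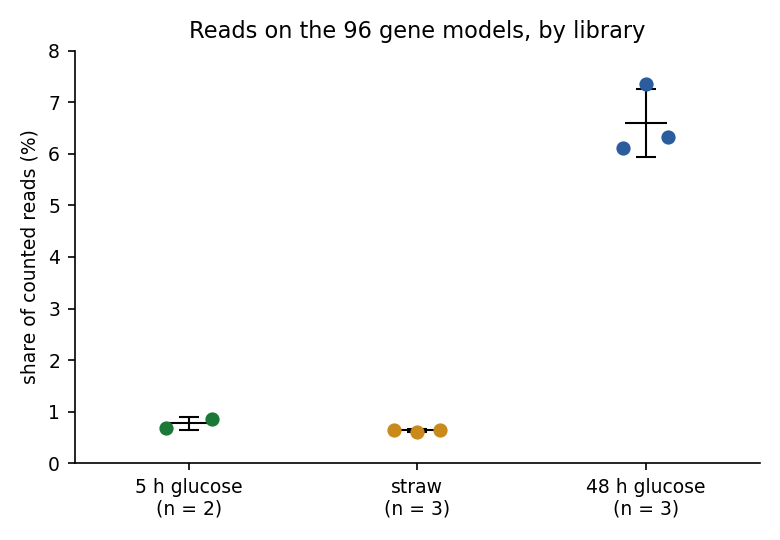
Share of the counted reads (%, vertical axis) on the 96 models in each library (points) of 5 h glucose, straw and 48 h glucose, with the mean and SD of each condition in black. The 5 libraries of 5 h glucose and straw lie between 0.609 and 0.856%, and the 3 libraries of 48 h glucose between 6.11 and 7.35%.

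A small number of models carried most of these reads at 48 h glucose. The 8 with the highest mean CPM held 48.9% of the summed mean CPM of the 96, and the 12 highest held 59.5%. In all, 19 models averaged 1000 CPM or more at 48 h glucose, 49 lay between 100 and 1000 CPM and 28 were below 100 CPM. The 5 h ratio was 0.1 or less for 35 models and the straw ratio for 50. Both were 0.1 or less for 26 models, of which 9 had both at 0.05 or less, and for 37 models neither was. The lowest library at 48 h glucose was above the highest of the other 5 libraries for all 96. The gap between those 2 libraries was smallest, at 1.79-fold, for fgenesh5_pg.C_scaffold_1000132 and largest, at 49.4-fold, for estExt_GeneWisePlus.C_10254, with a median of 5.17-fold, and it was under 3-fold for 11 models. The edgeR quasi-likelihood test placed all 96 lower at 5 h than at 48 h glucose, where 23.2% of the 7211 models tested were lower, and all 96 lower on straw than at 48 h glucose, where 28.2% were. Nothing is read from these counts, or from the gaps between libraries above, because the choice used the same values and contrasts. All 96 passed the filter on low counts, 88 of them also when 48 h glucose was left out and 8 only through their level at 48 h glucose.

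**Figure D2:**
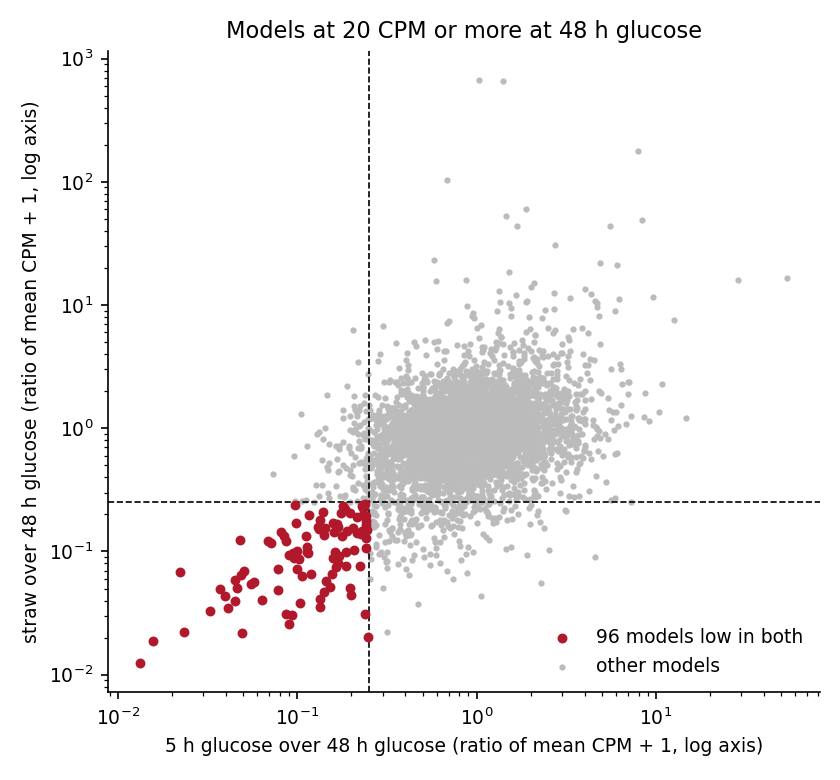
Ratio of 5 h glucose to 48 h glucose (horizontal) against the ratio of straw to 48 h glucose (vertical), both of mean CPM with 1 CPM added and on log axes, for the 4937 models at 20 CPM or more at 48 h glucose. Dashed lines mark the limit of 0.25, the 96 chosen models (red) fill the lower left corner, and the 215 models to their right below the horizontal line were low on straw only.

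Models close to the limits differed little across them. Just inside the straw limit were e_gw1.3.638.1 with a ratio of 0.244, e_gw1.3.254.1 with 0.239 and estExt_GeneWisePlus.C_11649 with 0.236. Just outside it were estExt_GeneWisePlus.C_190141 with a ratio just above the limit, estExt_GeneWisePlus.C_110105 with 0.254 and e_gw1.10.542.1, which encodes a protein with a fasciclin domain, with 0.255. Just inside the 5 h limit were e_gw1.30.155.1 with 0.248, e_gw1.35.88.1 with 0.245 and e_gw1.23.196.1 with 0.243, and just outside it fgenesh1_pm.C_scaffold_8000008 and fgenesh1_pm.C_scaffold_19000063 with 0.253 each and estExt_fgenesh1_pm.C_70120 with 0.254. The lowest chosen model at 48 h glucose was fgenesh5_pg.C_scaffold_15000041 with 25.4 CPM, and the highest model that failed that minimum alone was gw1.3.579.1 with 18.5 CPM.

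An annotation and a transcript ID could be attached to 25 of the 96 models, and the other 71 are given by model name only. The same was possible for 2113 of all 9126 models. Of the 25, 16 have an annotated function in the keyword groups that were searched, 6 are annotated as unknown proteins and 3 fall in none of the groups. Annotations with a keyword of oxidoreductases (dehydrogenase, reductase, oxidase, FAD and the like) were the most frequent, with 11 of the 25 (44.0%), against 171 of all 2113 annotated models (8.09%). The 11 include COX17, matched through the name of the enzyme it helps to assemble. A model could belong to more than 1 group. No annotated model among the 96 belonged to the groups of regulators, chaperones, or conidia and development. These groups held 152 (7.19%), 9 (0.426%) and 5 (0.237%) of all annotated models. With 25 annotated models chosen, nothing is read from their absence.

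Alternative oxidase *aox1* (e_gw1.4.889.1, JGI:57940, scaffold 4, 115671 to 116759 of the version 2.0 assembly) had the highest level of the annotated models at 48 h glucose. Its transcripts stood at 148 and 216 CPM at 5 h glucose, at 67.9, 58.6 and 70.7 CPM on straw, and at 1875, 1511 and 1884 CPM at 48 h glucose. The 3 conditions did not overlap, with straw lowest. Per length, the deposited RPKM (reads scaled by transcript length and library total) averaged 16.3 at 5 h glucose, 13.1 for straw and 209 for 48 h glucose, which was rank 48 of the 9126 models at 48 h glucose. On mean CPM + 1, *aox1* was 9.62-fold lower at 5 h glucose and 26.3-fold lower on straw than at 48 h glucose. It is a different gene from the alcohol oxidase that carries the same symbol in this fungus. Between 5 h glucose and straw, which the choice did not compare, *aox1* rose by 1.63 ± 0.23 on the log2 scale (± SE; adjusted p = 7.08e-06, edgeR's quasi-likelihood test fitted to all 8 libraries together, Benjamini-Hochberg over 7211 models). It was past the threshold without each of the libraries, but with the library totals behind the deposited RPKM as the scaling the change was 0.32 and did not pass.

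A model annotated as NADH dehydrogenase (ubiquinone), e_gw1.22.215.1 (JGI:67588, scaffold 22, 64968 to 66467), stands at the entry of electrons into the chain. It had 36.3 and 66.3 CPM at 5 h glucose, 37.6, 26.8 and 21.0 CPM on straw, and 394, 261 and 340 CPM at 48 h glucose. The 5 h and straw libraries overlapped. The difference of 1.04 ± 0.31 between them on the log2 scale passed the threshold (edgeR adjusted p = 0.00762), was 0.38 without 5 h glucose replicate 2, which did not pass, and was -0.30 with the library totals as the scaling. COX17, which delivers copper for the assembly of cytochrome c oxidase (e_gw1.1.1162.1, JGI:54676, scaffold 1, 310373 to 310558), had 22.5 and 22.1 CPM at 5 h glucose, 10.9, 8.66 and 9.67 CPM on straw, and 145, 150 and 129 CPM at 48 h glucose. It rose by 1.34 ± 0.29 on the log2 scale at 5 h glucose over straw (edgeR adjusted p = 0.000603), but the change was 0.06 with the library totals and did not pass.

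These 3 models belong to a list of 44 annotated models of the respiratory chain and mitochondria, of which 41 were tested. The list was made by keywords and also holds subunits of the vacuolar ATP synthase. Among the other 38 a lower level on straw was also frequent. Between straw and 48 h glucose 29 of the 38 were lower and 5 higher, with a median log2 fold change of -1.19 beside 0.05 over all models tested. Between 5 h and 48 h glucose 11 were lower and 4 higher, with a median of -0.17 beside 0.06, and between 5 h glucose and straw 20 were higher and 7 lower, with a median of 0.78 beside -0.04. With the library totals as the scaling 15 of the 38 were lower and 5 higher between straw and 48 h glucose, and the direction between 5 h glucose and straw turned, with 7 higher and 16 lower and a median of -0.45. That scaling shifted all models alike: the median of all models was then 0.85 for straw over 48 h glucose, -0.40 for 5 h over 48 h glucose and -1.31 for 5 h glucose over straw.

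**Figure D3:**
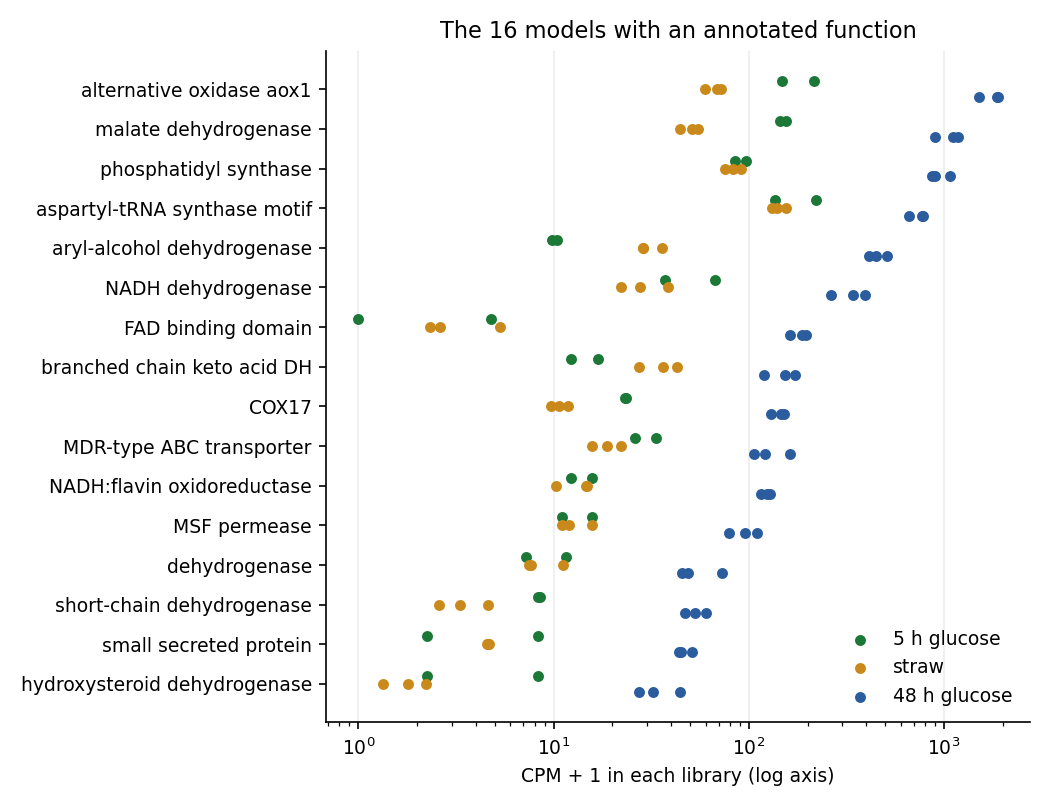
CPM + 1 (log axis) in each library of the 16 models with an annotated function, ordered by their mean at 48 h glucose, with 5 h glucose above straw and 48 h glucose within each row. In every row the 3 libraries of 48 h glucose lie to the right of the other 5, while the order of 5 h glucose and straw differs between rows: *aox1* and COX17 are higher at 5 h glucose and the aryl-alcohol dehydrogenase is higher on straw.

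The model annotated as malate dehydrogenase (e_gw1.10.84.1, JGI:62153, scaffold 10, 244154 to 246194) had the same order of conditions as *aox1*. It had 143 and 155 CPM at 5 h glucose, 54.2, 43.3 and 50.4 CPM on straw, and 899, 1116 and 1182 CPM at 48 h glucose, with no overlap between any of the conditions. Its rise at 5 h glucose over straw was 1.75 ± 0.21 on the log2 scale (edgeR adjusted p = 1.29e-06), and 0.47 with the library totals, which did not pass. It was the only chosen model of the group of pyruvate, malate and citric acid metabolism. That is 4.0% of the 25 annotated models chosen, against 0.757% of all annotated models (16), and rests on this model alone.

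An enzyme of aromatic alcohols and an enzyme of branched chain amino acids were lower at 5 h glucose than on straw. The model annotated as aryl-alcohol dehydrogenases, enzymes that interconvert aromatic alcohols and aldehydes (e_gw1.1.623.1, JGI:54694, scaffold 1, 189635 to 191174), had 8.77 and 9.47 CPM at 5 h glucose, 34.8, 27.6 and 27.7 CPM on straw, and 410, 448 and 508 CPM at 48 h glucose. On mean CPM + 1 it was 45.1-fold lower at 5 h glucose and 14.7-fold lower on straw than at 48 h glucose. Its change at 5 h glucose over straw was -1.55 ± 0.33 on the log2 scale (edgeR adjusted p = 0.000562), and past the threshold without each of the libraries. The alpha subunit of the branched chain alpha-keto acid dehydrogenase complex, which acts in the breakdown of branched chain amino acids (e_gw1.3.254.1, JGI:56726, scaffold 3, 1864647 to 1866075), had 11.3 and 15.8 CPM at 5 h glucose, 35.2, 42.1 and 26.4 CPM on straw, and 153, 172 and 119 CPM at 48 h glucose. Its change was -1.17 ± 0.35 (edgeR adjusted p = 0.00778), and -0.94 without 5 h glucose replicate 1, which did not pass. With the library totals as the scaling both changes were larger, at -2.85 and -2.49.

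The other oxidoreductases were lower in level. The FAD binding domain protein (e_gw1.10.538.1, JGI:62463) came close to loss of signal in both later conditions, with 3 and 0 reads at 5 h glucose, 4, 11 and 4 reads on straw, and 277, 276 and 262 reads at 48 h glucose. Against 48 h glucose it was at least 52.6-fold lower at 5 h glucose, calculated with 3 reads per library, and 53.3-fold lower on straw on mean CPM + 1. A short-chain dehydrogenase/reductase (e_gw1.24.264.1, JGI:68279), of a large family of NAD(P)-dependent enzymes, had 7.51 and 7.37 CPM at 5 h glucose, 3.64, 1.57 and 2.34 CPM on straw, and 52.2, 59.6 and 46.4 CPM at 48 h glucose. It rose by 1.70 ± 0.53 on the log2 scale at 5 h glucose over straw (edgeR adjusted p = 0.0102), did not pass at 1.58 without 5 h glucose replicate 2, and did not pass at 0.42 with the library totals. The model annotated as hydroxysteroid 17-beta dehydrogenase 11 (e_gw1.22.277.1, JGI:67778) had 1 and 7 reads at 5 h glucose, at most 3 reads in each straw library, and 45, 64 and 42 reads at 48 h glucose. With 14 reads in the 5 libraries of 5 h glucose and straw, it passed the filter only through 48 h glucose, and its difference between those conditions is given as these reads alone. An NADH:flavin oxidoreductase (e_gw1.30.50.1, JGI:69769) and a dehydrogenase of uncertain substrate (e_gw1.19.335.1, JGI:66544) overlapped between 5 h glucose and straw, with changes of 0.25 ± 0.34 and 0.29 ± 0.49 on the log2 scale, and neither passed the threshold. Among the other 100 models of this keyword group tested, 24 were lower and 15 higher at 5 h than at 48 h glucose, with a median log2 fold change of -0.08. On straw 33 were lower and 44 higher than at 48 h glucose (median 0.20), and at 5 h glucose 40 were lower and 27 higher than on straw (median -0.56). The medians over all models tested were 0.06, 0.05 and -0.04 for these comparisons. With the library totals as the scaling 18 were lower and 56 higher on straw than at 48 h glucose (median 1.01, beside 0.85 over all models), and 64 were lower and 12 higher at 5 h glucose than on straw (median -1.83, beside -1.31).

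Both chosen transporters were low in the later conditions without being lost. The MDR-type ABC transporter, of a family that uses ATP to export compounds from the cell (fgenesh5_pg.C_scaffold_20000158, JGI:110499, scaffold 20, 518013 to 522275), had 25.0 and 32.6 CPM at 5 h glucose, 17.8, 21.3 and 14.7 CPM on straw, and 120, 105 and 162 CPM at 48 h glucose. Its change at 5 h glucose over straw was 0.86 ± 0.31 on the log2 scale (edgeR adjusted p = 0.0253). It did not pass without 5 h glucose replicate 2 (0.51) or straw replicate 3 (0.71), and was -0.45 with the library totals as the scaling. The permease annotated as MSF (e_gw1.27.229.1, JGI:69164) had 10.0 and 14.7 CPM at 5 h glucose, 10.1, 11.0 and 14.7 CPM on straw, and 109, 94.8 and 77.8 CPM at 48 h glucose. Its 5 h and straw libraries overlapped. Transport models made up 2 of the 25 annotated models chosen (8.0%), near their share of all annotated models (143, 6.77%).

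The remaining annotated models of known function did not separate between 5 h glucose and straw. Phosphatidyl synthase (e_gw1.15.57.1, JGI:64959) had 95.2 and 84.2 CPM at 5 h glucose, 90.6, 74.8 and 81.7 CPM on straw, and 1072, 897 and 863 CPM at 48 h glucose. The model with an aspartyl-tRNA synthase motif, an enzyme that charges tRNA with aspartate (e_gw1.23.196.1, JGI:67859), had 135 and 221 CPM at 5 h glucose, 154, 131 and 139 CPM on straw, and 660, 773 and 776 CPM at 48 h glucose. A small secreted cysteine-rich protein (e_gw1.10.297.1, JGI:62522) averaged 4.31 CPM at 5 h glucose, 3.62 CPM on straw and 45.6 CPM at 48 h glucose. All 3 overlapped between 5 h glucose and straw. Phosphatidyl synthase and the model with the tRNA synthase motif did not pass the threshold there. For the latter the change was 0.51 on the log2 scale, and 0.83 without 5 h glucose replicate 1. The cysteine-rich protein passed the filter only through 48 h glucose. It had 37 reads in the libraries of 5 h glucose and straw, and no test is given for it. The 3 annotated models outside the keyword groups, named here after their values were seen, also overlapped: e_gw1.2.746.1 (JGI:55599), annotated as RNA12, estExt_GeneWisePlus.C_40918 (JGI:76151), a GT31 glycosyltransferase, and e_gw1.24.211.1 (JGI:68131), with a heterocompatibility domain. The GT31 model had 2 reads in each 5 h glucose library and between 99 and 113 reads at 48 h glucose, so that it was at least 20.5-fold lower at 5 h glucose, calculated with 3 reads per library.

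Of the 12 models with the highest mean CPM at 48 h glucose, all but *aox1* lacked an annotation. Per length, the highest of the 96 at 48 h glucose was estExt_fgenesh5_pg.C_180024 on scaffold 18, with a mean RPKM of 11.8 at 5 h glucose, 25.2 for straw and 456 for 48 h glucose, which was rank 13 of the 9126 models at 48 h glucose. In CPM it had 153 and 115 at 5 h glucose, 128, 143 and 137 on straw, and 3195, 5243 and 3956 at 48 h glucose. It was 30.7-fold lower at 5 h glucose and 30.2-fold lower on straw on mean CPM + 1, and the 2 later conditions overlapped.

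Other models of this level kept more of their transcript. estExt_GeneWisePlus.C_11686 on scaffold 1, the second of the 96 by RPKM, had 870 and 1536 CPM at 5 h glucose, 660, 565 and 698 CPM on straw, and 4771, 4851 and 5350 CPM at 48 h glucose. It rose by 1.08 ± 0.25 on the log2 scale at 5 h glucose over straw (edgeR adjusted p = 0.00104), but the change was 0.46 without 5 h glucose replicate 2, which did not pass, and -0.26 with the library totals as the scaling. estExt_fgenesh5_pg.C_160034 had 541 and 725 CPM at 5 h glucose, 449, 375 and 424 CPM on straw, and 2233, 3195 and 3397 CPM at 48 h glucose. Its change at 5 h glucose over straw was 0.77 ± 0.23 (edgeR adjusted p = 0.00819), 0.40 without 5 h glucose replicate 2, which did not pass, and -0.53 with the library totals, which passed as lower. estExt_fgenesh5_pg.C_220056 was deeper down on straw, with 60.1 and 88.4 CPM at 5 h glucose, 38.0, 22.0 and 35.7 CPM on straw, and 1562, 1573 and 1428 CPM at 48 h glucose. It rose by 1.39 ± 0.26 at 5 h glucose over straw (edgeR adjusted p = 0.000195), but the change was 0.08 with the library totals and did not pass.

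Some other models of high level lay lower or level at 5 h glucose. estExt_Genewise1.C_10269 on scaffold 1 had 423 and 478 CPM at 5 h glucose, 580, 761 and 575 CPM on straw, and 4918, 7051 and 3732 CPM at 48 h glucose. Every 5 h library was below every straw library, but the change of -0.35 ± 0.26 on the log2 scale did not pass the threshold. estExt_GeneWisePlus.C_310001 had 142 and 181 CPM at 5 h glucose, 217, 203 and 242 CPM on straw, and 3330, 3315 and 2976 CPM at 48 h glucose. Its change was -0.29 ± 0.22 and did not pass, and passed at -0.62 without 5 h glucose replicate 2. estExt_GeneWisePlus.C_120183 averaged 392 CPM at 5 h glucose, 455 CPM on straw and 2986 CPM at 48 h glucose, and its 5 h and straw libraries overlapped.

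A run of 4 consecutive models on scaffold 1 was low together. Running numbers in a model name follow the position along a scaffold: for the 422 numbered models with a position in RefSeq, the start increased with the number in all 275 consecutive pairs of a series and scaffold. In the estExt_GeneWisePlus series of scaffold 1 the models C_10249, C_10252, C_10254 and C_10262 follow each other with no other deposited model of that series between them, and all 4 were chosen. Models of other series may lie between them and could not be placed. Among the chosen models that carry a running number there were this run, 1 pair and 51 models without a chosen neighbour in their series. The other chosen models have no such number and were not placed. estExt_GeneWisePlus.C_10249 had 225 and 238 CPM at 5 h glucose, 225, 312 and 229 CPM on straw, and 4668, 8192 and 4724 CPM at 48 h glucose, rank 2 of the 9126 models in reads. With 7779 bases it is a long model, and its mean RPKM of 85.3 at 48 h glucose gave it rank 151. estExt_GeneWisePlus.C_10252, of 7946 bases, had 140 and 115 CPM at 5 h glucose, 132, 220 and 146 CPM on straw, and 2503, 3831 and 2234 CPM at 48 h glucose.

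The other 2 models of the run were shorter and had lower mean CPM in all 3 conditions. estExt_GeneWisePlus.C_10254 had the lowest ratios of the 96, 75.2-fold lower at 5 h glucose and 80.7-fold lower on straw than at 48 h glucose on mean CPM + 1. It had 20.0 and 16.8 CPM at 5 h glucose, 13.3, 21.3 and 16.7 CPM on straw, and 1210, 2120 and 1050 CPM at 48 h glucose. estExt_GeneWisePlus.C_10262 had 33.8 and 25.3 CPM at 5 h glucose, 18.6, 21.6 and 14.7 CPM on straw, and 387, 744 and 310 CPM at 48 h glucose. All 4 were highest in 48 h glucose replicate 2, where the run took 1.49% of the counted reads, against 0.877% in replicate 1 and 0.832% in replicate 3. Without the run the 96 models took 0.730 ± 0.123% of the reads at 5 h glucose (SD, n = 2), 0.589 ± 0.0322% on straw (SD, n = 3) and 5.53 ± 0.313% at 48 h glucose (SD, n = 3). The 5 h and straw libraries of the first 3 models overlapped. For C_10262, named after its values were seen, every 5 h library was above every straw library, and the change of 0.83 ± 0.41 on the log2 scale did not pass the threshold.

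The next models of the series on scaffold 1 had the opposite pattern. They are *axe1* (acetyl xylan esterase, which removes acetyl groups from xylan), *cip1* (a secreted protein with a cellulose-binding module) and *cel61a* (a copper monooxygenase that cleaves cellulose). *axe1*, whose number follows that of C_10262 directly, averaged 5.86 CPM at 5 h glucose, 3420 CPM on straw and 6.56 CPM at 48 h glucose. *cip1* averaged 4.81 CPM at 5 h glucose, 1904 CPM on straw and 2.36 CPM at 48 h glucose, and *cel61a* averaged 14.2 CPM at 5 h glucose, 4616 CPM on straw and 8.40 CPM at 48 h glucose. The models beyond either end of this stretch of 7 lay between 11.2 and 201 CPM in the means of all 3 conditions.

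**Figure D4:**
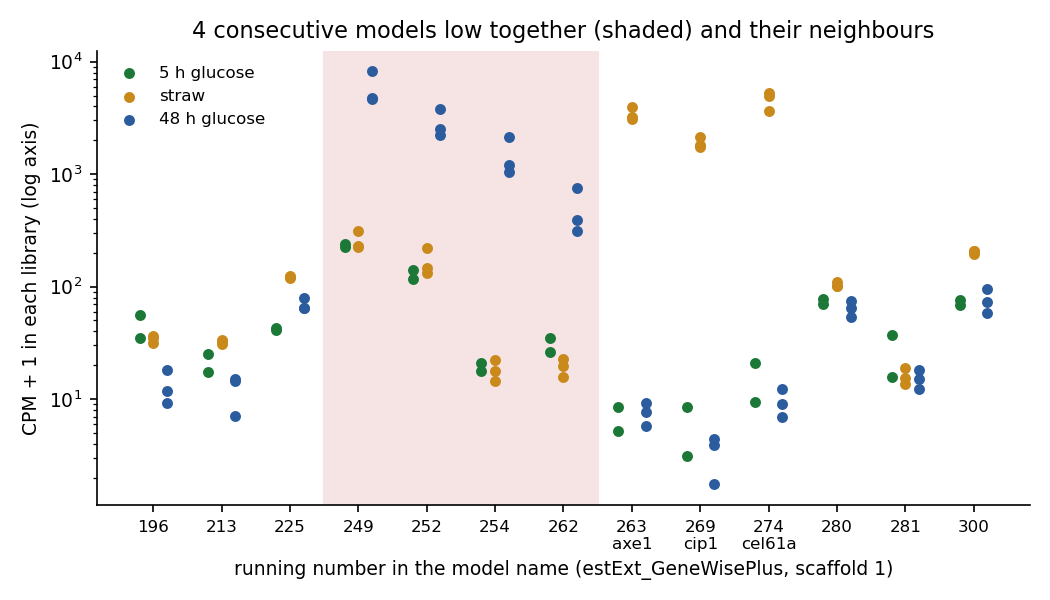
CPM + 1 (log axis) in each library of 13 consecutive models of the estExt_GeneWisePlus series on scaffold 1, ordered by the running number in the model name, with the 4 chosen models shaded. In the shaded models the libraries of 48 h glucose lie at 310 CPM or more, and each model's 3 libraries of 48 h glucose are its highest, and in the next 3 models only the straw libraries are high.

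Replicate 2 of 48 h glucose was also the highest of its condition for other models. It was highest for 37 of the 96, replicate 3 for 35 and replicate 1 for 24. It exceeded both other replicates by 1.2-fold or more for 14 models, which include the run of 4, estExt_Genewise1.C_10269, estExt_fgenesh5_pg.C_180024 and 2 of the 3 chosen models on scaffold 32, estExt_GeneWisePlus.C_320119 and estExt_fgenesh1_pm.C_320015. Replicate 3 did so for 6 models and replicate 1 for 5. Among all 4937 models at 20 CPM or more at 48 h glucose, replicate 2 did so for 445. The part of this library in the level of these models at 48 h glucose was not tested beyond leaving it out, which left 6.22% of the reads on the 96 models at 48 h glucose.

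Of the 3 chosen models on scaffold 32, 2 had some of the lowest ratios. estExt_fgenesh1_pm.C_320015 had 6.26 and 18.9 CPM at 5 h glucose, 11.3, 9.84 and 14.7 CPM on straw, and 436, 733 and 568 CPM at 48 h glucose. estExt_GeneWisePlus.C_320119 had 25.0 and 18.9 CPM at 5 h glucose, 21.0, 11.0 and 23.0 CPM on straw, and 490, 725 and 460 CPM at 48 h glucose. Both overlapped between 5 h glucose and straw. The third, gw1.32.38.1, had ratios of 0.120 at 5 h glucose and 0.0660 on straw. The first 2 are among the 6 models with the lowest mean of the 2 ratios, the others being estExt_GeneWisePlus.C_10254, e_gw1.10.538.1, estExt_fgenesh5_pg.C_180024 and estExt_fgenesh5_pg.C_220056.

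The comparison of 5 h glucose with straw asks whether the low level of these models differed after glucose was added. The added glucose and the 5 h of further culture cannot be told apart in it. Of the 96, 33 (34.4%) were higher at 5 h glucose, where 28.5% of all models tested were, and 5 (5.21%) were lower, where 30.0% were. The other 58 passed neither threshold. The share that rose was near that of all models. The choice had capped the level on straw and at 5 h glucose alike, and its part in both shares was not tested. Models with more on straw than at 48 h glucose could not be chosen but are among all models tested. Nothing is therefore read from the few that were lower. The same holds for the shares and medians below that are set beside those of all models. Every 5 h library was above every straw library for 32 models (33.3%, against 29.9% of all models tested), and below for 10 (10.4%, against 42.7%), and 54 overlapped. The median log2 fold change was 0.31, beside -0.04 over all models tested. This direction depended on the scaling: with the library totals behind the deposited RPKM, 4 of the 96 were higher, where 6.14% of all models tested were, and 47 lower, where 67.3% were, and the median was -0.95 beside -1.31 over all models. Of the 38 models named by the rule, 14 that passed neither threshold were then lower. The median of the 96 lay 0.35 above that of all models under both scalings, 0.20 above it without 5 h glucose replicate 2 and 0.62 above it without 5 h glucose replicate 1. Without 5 h glucose replicate 2, 21 were higher and 8 lower with a median of 0.087, and without replicate 1, 31 were higher and 3 lower with a median of 0.48. Without straw replicate 1, 32 were higher and 4 lower, and without straw replicate 3, 30 were higher and 3 lower. Of the 33 that rose, 15 were below 0 with the library totals, 3 of them past the threshold. Of the 88 models that passed the filter without 48 h glucose, 31 were higher and 5 lower, also in a fit of the 5 h glucose and straw libraries only. Of the 33 models, 17 were past the threshold without each of the 8 libraries.

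**Figure D5:**
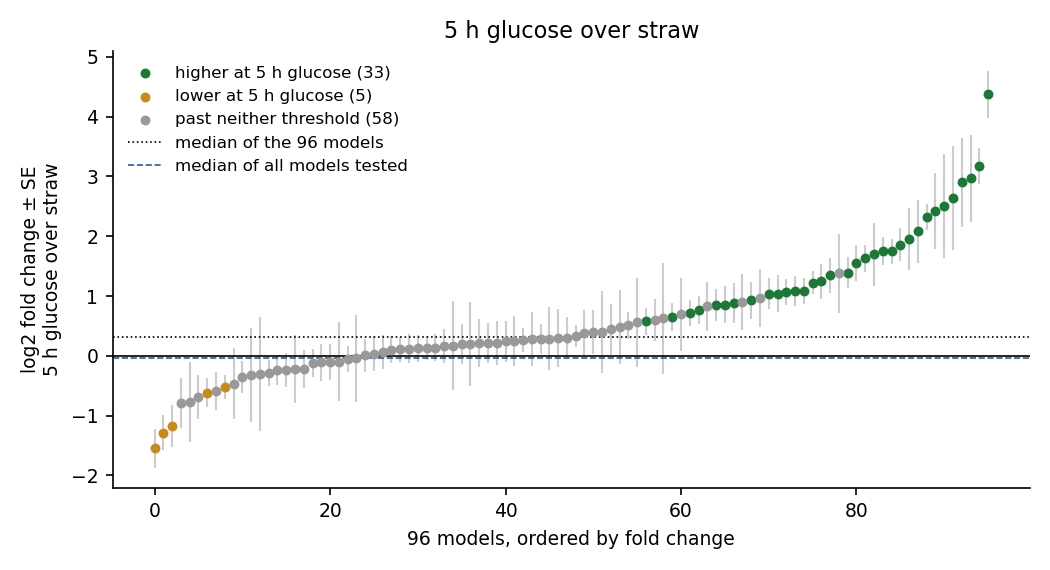
Log2 fold change of 5 h glucose over straw (vertical, ± SE, edgeR with TMM scaling) for the 96 models ordered by size, with the 33 higher in green, the 5 lower in orange and the 58 past neither threshold in grey. The median of the 96 (dotted) is 0.31 and that of all models tested (dashed) -0.04. With the library totals as the scaling both medians are negative, at -0.95 and -1.31. Among the points are 8 models that passed the filter on low counts only through 48 h glucose, 2 of them among the 33. Nothing is read from the changes of these 8.

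The largest rises named by the rule belong to models without a known function, apart from e_gw1.22.277.1, for which only reads are given above. e_gw1.30.155.1 on scaffold 30 had 36.3 and 23.2 CPM at 5 h glucose, 1.21, 1.57 and 1.67 CPM on straw, and 127, 142 and 99.5 CPM at 48 h glucose. It rose by 4.38 ± 0.39 on the log2 scale (edgeR adjusted p = 4.02e-08), and by 3.15 with the library totals, and it is the model just inside the 5 h limit. e_gw1.46.46.1 on scaffold 46 had 86.4 and 167 CPM at 5 h glucose, 11.7, 15.4 and 20.0 CPM on straw, and 614, 561 and 423 CPM at 48 h glucose. It rose by 3.18 ± 0.30 (edgeR adjusted p = 6.86e-08), and by 1.84 with the library totals. Both rose clearly and, as the choice requires, stayed below 0.25 of the level at 48 h glucose. e_gw1.5.645.1 had 5.01 and 6.31 CPM at 5 h glucose, 0.404, 1.57 and 0.334 CPM on straw and 42.2, 55.5 and 47.9 CPM at 48 h glucose, and rose by 2.97 ± 0.73 (edgeR adjusted p = 0.00198). e_gw1.20.94.1 (JGI:67109), annotated as unknown, had 7.51 and 5.26 CPM at 5 h glucose, 0.809, 1.57 and 0.334 CPM on straw and 32.8, 27.8 and 48.6 CPM at 48 h glucose, and rose by 2.90 ± 0.74 (edgeR adjusted p = 0.00262), but did not pass at 1.65 with the library totals. These 2 rises rest on 16 and 18 reads in the 5 libraries compared, and both models reached the minimum of the naming rule through their reads at 48 h glucose. The 4 models that were higher under both scalings are e_gw1.30.155.1, e_gw1.46.46.1, e_gw1.5.645.1 and estExt_fgenesh5_pg.C_70277, the last chosen after its values were seen. Of these, e_gw1.5.645.1 passed only narrowly with the library totals, at 1.70 (edgeR adjusted p = 0.0473).

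Beside the 2 enzymes of alcohol and amino acid breakdown, 3 models of unknown function were lower at 5 h glucose than on straw. fgenesh1_pm.C_scaffold_7000066 (JGI:3488) had 13.8 and 10.5 CPM at 5 h glucose, 31.9, 30.7 and 35.4 CPM on straw, and 316, 251 and 249 CPM at 48 h glucose. Its change was -1.29 ± 0.30 on the log2 scale (edgeR adjusted p = 0.0012), past the threshold without each of the libraries. fgenesh5_pg.C_scaffold_2000257 had 32.6 and 45.3 CPM at 5 h glucose, 63.9, 65.3 and 71.7 CPM on straw, and 293, 387 and 343 CPM at 48 h glucose, with a change of -0.61 ± 0.24 (edgeR adjusted p = 0.0347). It did not pass without 5 h glucose replicate 1 (-0.39) or straw replicate 3 (-0.57). e_gw1.5.460.1 had 198 and 186 CPM at 5 h glucose, 297, 322 and 301 CPM on straw, and 2480, 2351 and 2054 CPM at 48 h glucose, with a change of -0.53 ± 0.20 (edgeR adjusted p = 0.0303). It did not pass without straw replicate 1 (-0.56), 2 (-0.51) or 3 (-0.55). All 5 lower models had every 5 h library below every straw library, and all 5 were lower with the library totals as well.

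The 96 models lay on 30 scaffolds. Scaffold 7 held 14 of them (14.6%), against 14 of the 215 models that were low on straw only (6.51%) and 4.66% of the 4937 models at 20 CPM or more at 48 h glucose. Scaffold 1 held 15 (15.6%), against 591 of the 4937, and scaffold 5 held 10 (10.4%), against 5.19%. No 2 of the numbered models on scaffold 7 were neighbours in their series. On scaffold 7 the mean at 48 h glucose ran from 26.4 CPM for gw1.7.723.1 to 1303 CPM for e_gw1.7.575.1. Transcript length had a median of 1320 bases for the 96, 1222 bases for the 215 and 1542 bases for the 4937. Transcripts of 4000 bases or more made up 5 of the 96, 1 of the 215 and 270 of the 4937. The coefficient of variation among the 3 libraries of 48 h glucose had a median of 15.2% for the 96, 16.2% for the 215 and 14.4% for the 4937.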

How the data were processed

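Reads of 50 bp were aligned by the authors to the JGI assembly and its exon junctions (BioScope). Those on rRNA genes were discarded, and sense reads with a unique position were assigned to gene models with HTSeq, each library separately. The deposited files hold these counts per model, the model's length in bases and RPKM, which the authors calculated from the length and a library total that was recovered here as 7838128 to 16471040 reads. No columns of fold changes were used.

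CPM were calculated on the summed counts of each library. Counts were tested with edgeR 4.0.16 (R 4.3.3; TMM factors 0.893 to 1.06, filterByExpr, quasi-likelihood test) with all 8 libraries in the same fit, with Benjamini-Hochberg adjustment over 7211 models and a threshold of 0.05. DESeq2 1.42.0 was an alternative. Other alternatives were the library totals behind the RPKM or summed counts only as the scaling, no filter, a threshold of 0.01, a replicate block, a fit of only the conditions compared, each library left out, and other settings of the choice of models. Tables and plots were made with matplotlib 3.10.9, scipy 1.17.1, numpy 2.4.6 and pandas 2.3.3 in Python 3.11.15. The test was checked on simulated data with 200 changed models.

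Annotations came from the study's supplementary tables by transcript ID, the IDs of *axe1* and *cel61a* being matched through the deposited RPKM, and coordinates from the RefSeq annotation of the version 2.0 assembly. The models, the annotation keyword groups and the tests were chosen with earlier results of these data known. The models named are the 12 highest at 48 h glucose, the 6 with the lowest mean of both ratios, up to 5 in each direction with the largest called change of 5 h glucose over straw (a mean of at least 20 counts and no overlap of libraries), every model with an annotated function, and those next to the limits. Sequences were not analysed here.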

Additional observations from a re-analysis of the deposited data

How the results depend on the processing

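The number of models chosen changed most with the unit, which also changed the minimum, and with the limit. Deposited RPKM in place of CPM gave 43 models, 35 of them among the 96, and a limit of 0.33 gave 172. With RPKM the minimum at 48 h glucose kept its number, which is a stricter minimum in that unit. Only 46 of the 96 reached it, with a mean RPKM of 22.0 at rank 46 and 19.4 at rank 47. The models below it were lost whatever their ratios, and 35 of the 46 above it were kept. A limit of 0.2, a minimum of 10 or 50 CPM, 0.5 or 5 CPM added, medians or TMM-normalised CPM gave 69 to 103, and leaving out each library gave 90 to 109. Relative to the library totals from which the RPKM were made, the models took 0.0665% of reads (5 h glucose), 0.12% (straw) and 0.744% (48 h glucose).

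Between 5 h glucose and straw, the library totals left 4 models higher and 47 lower with a median log2 fold change of -0.95. Summed counts without TMM gave a median of 0.16, and a threshold of 0.01 left 24 higher and 3 lower. Leaving out each library gave 21 to 34 higher, 3 to 8 lower and median log2 fold changes of 0.087 without 5 h glucose replicate 2 to 0.48 without 5 h glucose replicate 1. Under the library totals the direction turned for 15 of the 33 models that rose, of which 3 passed as lower. Among the models named by the rule these were e_gw1.22.215.1 (-0.30), e_gw1.35.88.1 (-0.38), estExt_GeneWisePlus.C_11686 (-0.26), estExt_fgenesh5_pg.C_160034 (-0.53) and fgenesh5_pg.C_scaffold_20000158 (-0.45). Of the 38 named models 12 kept their call, 14 newly passed as lower and 7 no longer passed. That scaling lowered the median of all models from -0.04 to -1.31 and that of the 96 from 0.31 to -0.95, a shift common to all models. Why the library totals and the counted reads differed between conditions was not tested. With DESeq2 all 38 kept their call. With the replicate number as a block 33 were higher and 5 lower, with a median of 0.36, and no named model changed its call. Deviations from the mean of the condition had correlations of -0.026 to 0.153 between same-numbered libraries and -0.153 to 0.145 between others. The deviations of the 2 libraries of 5 h glucose mirror each other, so these values cannot exclude pairs. The numbers were not taken as pairs in the main test. With 798550 and 950244 counted reads, the 5 h libraries limit what can be seen: 3 models had 3 reads or fewer in each of them.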
